A study of Mus musculus with 4 samples.

Results

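The transcripts described here are 34 genes known as markers of cells other than neurons in brain tissue: 9 of oligodendrocytes, 11 of astrocytes, 5 of endothelial cells, 5 of microglia, 3 globins of red blood cells and 1 of the choroid plexus. They were chosen by symbol, with earlier results of these data known, so the shares of all genes given beside them are no test. All 34 were matched to the Ensembl identifiers of the deposited tables and had a row among 20089 genes. Total RNA was sequenced from HT22, a mouse hippocampal line of neuronal type (labelled C57BL/6) that divides without limit in culture, with 1 library for each of 4 groups and no replicates. The groups were cells given a control negative lentivirus and kept in DMEM/F12 with serum (control normal), cells given a lentivirus targeted against Neat1 in that medium (knockdown normal), control-virus cells deprived of oxygen and glucose (control OGD), and Neat1-virus cells under the same deprivation (knockdown OGD). All 4 groups therefore carried a lentivirus. The sources used here state neither the length of the deprivation nor the sequence carried by the Neat1 virus.

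In brain tissue, oligodendrocytes wrap axons in myelin, astrocytes take up glutamate and carry lipid, endothelial cells line the vessels, microglia are the resident macrophages, and globin messenger RNA comes from red cells and their precursors. Most of these genes are used as markers because mature neurons express them little. HT22 is a single cell line and holds no vessels, blood or glia by its label.

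The deposited scaled counts could be turned back into whole reads, which gave library totals between 17232866 and 20764430 reads. Values are given as reads or as CPM, the reads of a gene scaled to a common library size, with TMM, a factor that corrects for library composition, and 0 reads allows a level of up to 0.140 to 0.195 CPM depending on the library (3 reads). Intervals are 95% and cover counting error only; the reads carried no molecular identifiers, and the spread between cultures is unknown because each group is 1 library. Neat1 itself, the targeted long noncoding RNA, stood at 193 CPM in control normal, 121 in knockdown normal, 74.4 in control OGD and 42.1 in knockdown OGD, lower with the Neat1 virus in both cultures. The libraries stood apart in other ways. A list of 18 neuronal genes was also chosen with earlier results of these data known. It summed to 2445 CPM in control normal and 537 in knockdown OGD, against 80.3 in knockdown normal and 269 in control OGD. All 18 had at least 20 reads in the first pair of libraries, and 9 and 11 of them in the second pair. Reads of 3 genes that hold ribosomal RNA repeats made up 1.81% of control normal, 4.32% of knockdown normal, 4.78% of control OGD and 0.341% of knockdown OGD. Their part in the levels described below was not tested, and with 1 library per group no result could be given without a library.

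The 34 transcripts together had 31802 reads in control normal, 2623 in knockdown normal, 2301 in control OGD and 5834 in knockdown OGD. Control normal and knockdown OGD, which share neither virus nor culture, thus held more of them than the other two libraries, and are called the high libraries here. They fell into 3 sets by a threshold on the knockdown normal and control OGD libraries. The first set, with a scaled count of at least 20 in both, was 8 genes: Mbp, Mobp, Cnp, Apoe, Slc1a2, Glul, Flt1 and Csf1r. Another 19 reached 20 reads in control normal or knockdown OGD but did not meet that threshold, and 7 (Mog, Aqp4, Cdh5, Cx3cr1, C1qb, P2ry12 and Ttr) stayed under 20 reads in every library. Mobp lay just inside, with a scaled count of 20.1 in knockdown normal, and Slc1a3 (19.2 and 19.7 in control OGD, in its 2 tables) and Ckb (18.1 and 18.2 in knockdown normal) lay just outside.

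**Figure D1:**
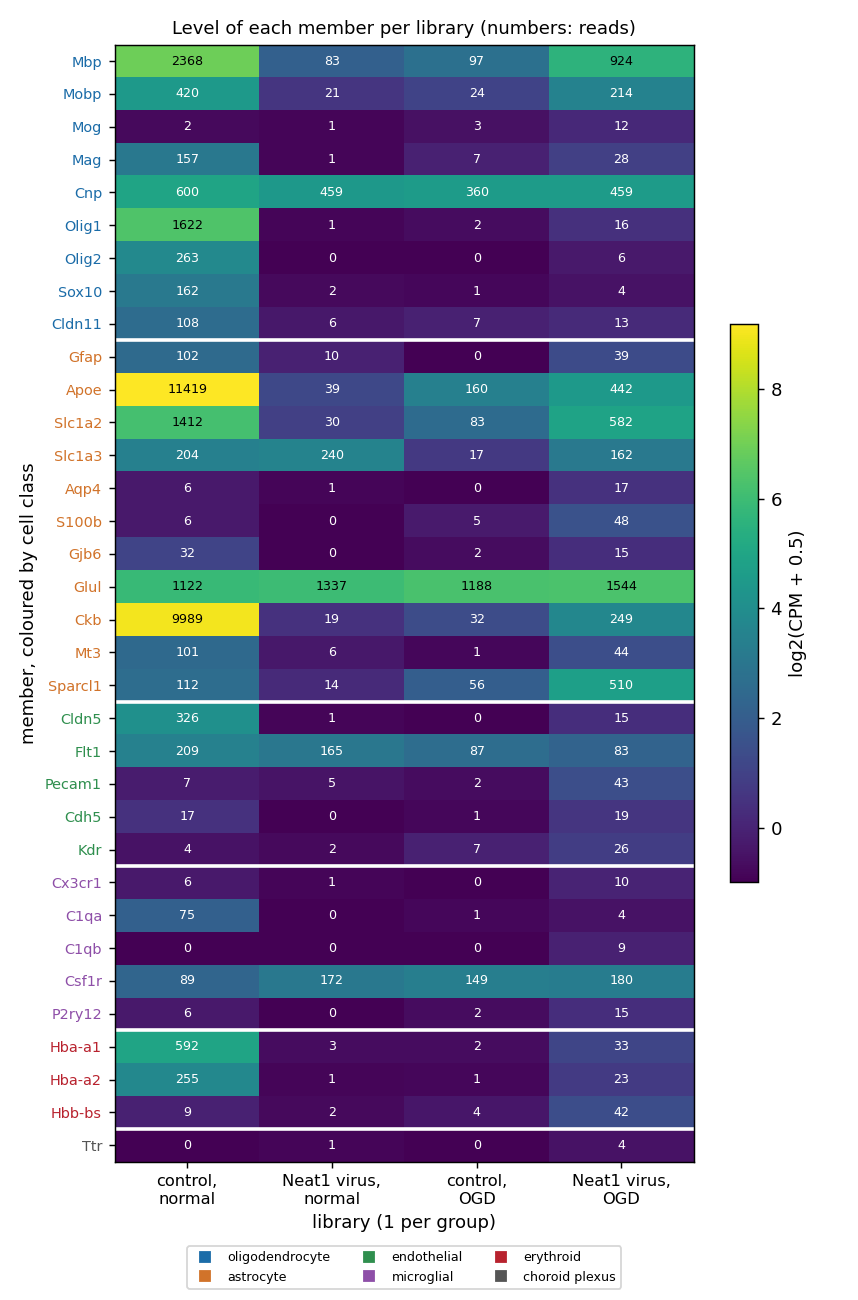
Level of each of the 34 transcripts (rows, coloured by cell class) in the 4 libraries (columns), as log2 of CPM with 0.5 added; the number in each cell is the reads. The control normal column is brightest for Apoe (11419 reads) and Ckb (9989 reads), and Cnp (360 to 600 reads) and Glul (1122 to 1544 reads) keep a similar colour along their rows.

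Because the threshold used the knockdown normal and control OGD libraries, the low values there describe the choice and are no finding. What it did not use was which of the other two libraries was higher. Of the 19 genes, 13 had their highest level in control normal and 5 in knockdown OGD, and 1 (Slc1a3) in knockdown normal. All 7 genes under 20 reads had their highest level in knockdown OGD, but for 4 of them the interval of its ratio to control normal held 1. Of the 8 genes present throughout, 6 were highest in control normal, Glul in knockdown OGD and Csf1r in control OGD. Presence throughout did not mean an even level: for 5 of the 8 both high libraries were above both others. In knockdown normal, Mbp, Mobp, Apoe and Slc1a2 stood at 3.20%, 4.56%, 0.312% and 1.94% of control normal.

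Among the oligodendrocyte genes, Mbp and Mobp encode structural proteins of the myelin sheath. Mbp had 2368 reads in control normal, 83 in knockdown normal, 97 in control OGD and 924 in knockdown OGD, and Mobp had 420, 21, 24 and 214 reads in the same order. Both were thus highest in control normal, and knockdown OGD held 39.1% of that level for Mbp and 51.0% for Mobp. Mbp was 31.3-fold lower in knockdown normal than in control normal (25.1 to 39.4) and 2.56-fold lower in knockdown OGD (2.37 to 2.76). Mag and Mog, adhesion proteins of the myelin surface, were rarer: Mag had 157, 1, 7 and 28 reads, and Mog 2, 1, 3 and 12. Cldn11, the claudin of myelin tight junctions, had 108, 6, 7 and 13 reads, with knockdown OGD close to the low libraries.

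The transcription factors of the lineage showed the widest gap. Olig1, which drives oligodendrocyte maturation, had 1622 reads in control normal, 1 in knockdown normal, 2 in control OGD and 16 in knockdown OGD. Olig2, which lies near it on chromosome 16 and sets the lineage, had 263, 0, 0 and 6 reads. Sox10, which activates myelin genes, had 162, 2, 1 and 4. All 3 factors had at most 16 reads outside control normal, while Mbp and Mobp kept 924 and 214 in knockdown OGD. Olig1 was 101-fold lower in knockdown OGD than in control normal (62.1 to 178), Olig2 43.8-fold (19.8 to 120) and Sox10 40.4-fold (15.5 to 150). Against knockdown normal the Olig1 ratio was 1777-fold on 1 read (318 to 70227). For Olig2, with 0 reads in knockdown normal, it was 96.0-fold with 3 reads put for the 0, and its interval starts at 77.6-fold. Cnp, an enzyme of myelin that is also found in many other cells, behaved unlike the rest, with 600, 459, 360 and 459 reads and a ratio of at most 1.43-fold in any of the 4 comparisons.

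Astrocyte genes of lipid and energy metabolism were the most abundant of the 34 in control normal. Per length, in the values read as FPKM, Apoe, the main lipid carrier secreted by astrocytes, stood at 712 there and Ckb, brain creatine kinase, at 424, followed by Hba-a1 at 87.5 and Mbp at 71.8. Apoe had 11419 reads in control normal, 39 in knockdown normal, 160 in control OGD and 442 in knockdown OGD. Ckb, which neurons also express, had 9989, 19, 32 and 249 reads. The gap between control normal and knockdown OGD was wider than for Mbp, with Apoe 25.8-fold lower in knockdown OGD (23.5 to 28.4) and Ckb 40.1-fold lower (35.3 to 45.6). Ckb was 576-fold lower in knockdown normal than in control normal (369 to 957).

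The glutamate transporters of astrocytes differed from each other. Slc1a2 (GLT-1) had 1412, 30, 83 and 582 reads, the same order of libraries as Mbp, and was 2.42-fold lower in knockdown OGD than in control normal (2.20 to 2.67). Slc1a3 (GLAST), which is also found in cultured and progenitor cells, had 204, 240, 17 and 162 reads, so it was low in control OGD alone. Glul, the glutamine synthetase that follows uptake, had 1122, 1337, 1188 and 1544 reads and a lowest and highest level of 57.2 and 78.9 CPM. Glul was thus as plentiful in knockdown normal and control OGD as in the others.

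Most structural and membrane markers of astrocytes had few reads. Gfap, the intermediate filament, had 102, 10, 0 and 39 reads, and Mt3, a metallothionein of brain, had 101, 6, 1 and 44. Gjb6, the gap junction protein connexin 30, had 32, 0, 2 and 15 reads, and Aqp4, the water channel of astrocyte endfeet, 6, 1, 0 and 17. S100b, a calcium-binding protein, had 6, 0, 5 and 48 reads, and Sparcl1, a secreted matrix protein, had 112, 14, 56 and 510. Sparcl1, S100b and Aqp4 therefore had more reads in knockdown OGD than in control normal, whereas Gfap, Mt3 and Gjb6 had fewer. Sparcl1 was 4.56-fold higher there (3.71 to 5.65) and S100b 8.01-fold higher (3.42 to 22.9), while Gfap was 2.61-fold lower (1.79 to 3.88).

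The endothelial genes went in opposite directions between the high libraries. Cldn5, the tight junction claudin of the blood-brain barrier, had 326 reads in control normal, 1 in knockdown normal, 0 in control OGD and 15 in knockdown OGD, a 21.7-fold lower level in knockdown OGD than in control normal (13.0 to 39.2). Pecam1, an adhesion molecule of vessel walls, had 7, 5, 2 and 43 reads, and Kdr, a receptor of vascular growth factor, had 4, 2, 7 and 26. Pecam1 was 6.15-fold higher in knockdown OGD (2.74 to 16.2) and Kdr 6.51-fold higher (2.26 to 25.7). Cdh5, the cadherin of endothelial junctions, had 17, 0, 1 and 19 reads and no resolved difference between those libraries (1.12-fold higher, 0.551 to 2.29). Flt1, another such receptor, was present throughout at 209, 165, 87 and 83 reads, lowest in the OGD libraries.

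Microglial reads came mostly from 1 gene. Csf1r, the receptor that microglia need to survive, had 89 reads in control normal, 172 in knockdown normal, 149 in control OGD and 180 in knockdown OGD, lowest in the library that was highest for most of the other genes. Cx3cr1, the fractalkine receptor, had 6, 1, 0 and 10 reads and P2ry12, a purine receptor of resting microglia, 6, 0, 2 and 15. The complement genes C1qa and C1qb had 75, 0, 1 and 4 reads and 0, 0, 0 and 9 reads. C1qa and C1qb, whose products join in 1 protein, thus peaked in different libraries, C1qa 18.7-fold lower in knockdown OGD than in control normal (7.02 to 70.5) and C1qb with 9 reads against 0, for which the interval of the ratio starts at 1.98-fold higher. Ttr, the carrier of thyroid hormone made by choroid plexus, had 0, 1, 0 and 4 reads, too few to set the libraries apart.

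The globins carried a further contrast. The alpha globin genes Hba-a1 (chr11:32283511-32284465, plus strand, GRCm38) and Hba-a2 (chr11:32296489-32297298, plus strand) have coding sequences of 426 bases that differ at 1 base, position 381 counted from the first base of the start codon. The 90 coding bases from 336 to 425 of each are shown, from GENCODE transcripts, because a read that does not cover this base cannot be given to either gene by its coding part. The differing base is in capitals.
Hba-a1: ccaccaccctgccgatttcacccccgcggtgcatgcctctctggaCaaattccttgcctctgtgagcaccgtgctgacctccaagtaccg
Hba-a2: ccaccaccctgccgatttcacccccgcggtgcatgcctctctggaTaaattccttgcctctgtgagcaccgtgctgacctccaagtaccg
Their separate counts are uncertain for that reason. Hba-a1 had 592 reads in control normal, 3 in knockdown normal, 2 in control OGD and 33 in knockdown OGD, and Hba-a2 had 255, 1, 1 and 23. Hbb-bs, a beta globin gene, had 9, 2, 4 and 42 reads. The alpha genes were thus lower in knockdown OGD than in control normal, by 17.9-fold for Hba-a1 (12.6 to 26.3), and the beta gene was 4.67-fold higher (2.24 to 10.9), although red cell precursors make both chains.

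**Figure D2:**
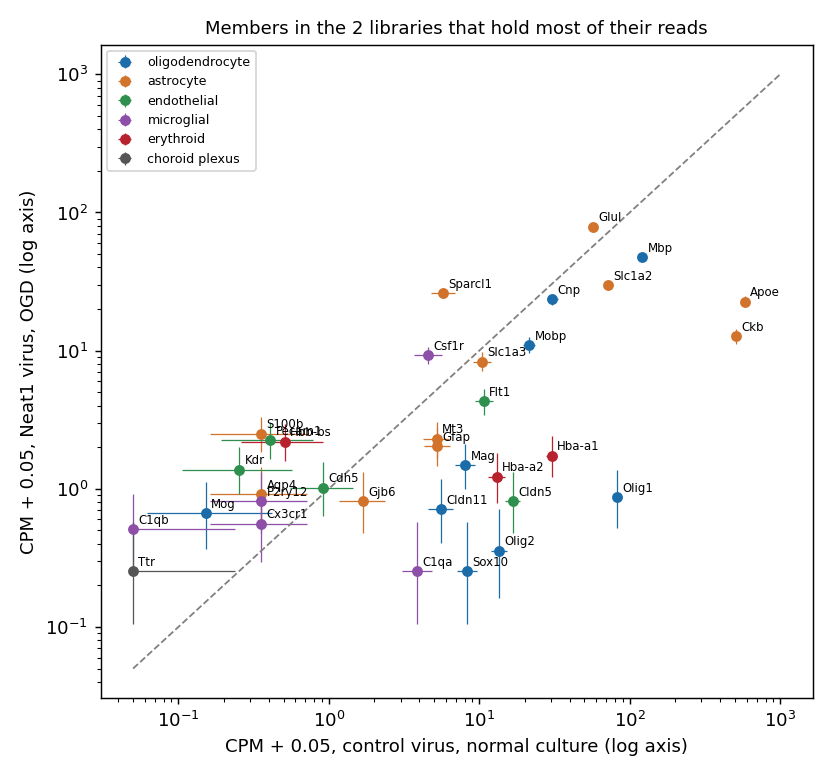
Level of each transcript in control normal (x) against knockdown OGD (y), as CPM with 0.05 added on log axes, coloured by cell class; the dashed line marks equal levels. Of the 34 points 20 lie under the line, furthest for Olig1 (82.7 against 0.817 CPM), and the others lie above it, among them Sparcl1 (5.71 against 26.0 CPM), Glul, Csf1r and the 7 genes under 20 reads.

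Summed by class, oligodendrocyte genes stood at 291 CPM in control normal, 26.7 in knockdown normal, 32.6 in control OGD and 85.6 in knockdown OGD. Astrocyte genes stood at 1250, 79.0, 100.4 and 187 CPM, and endothelial genes at 28.7, 8.05, 6.31 and 9.50 CPM. The microglial sum was level, at 8.98, 8.05, 9.88 and 11.1 CPM, and globins ran from 43.7 through 0.279 and 0.455 to 5.01 CPM. Csf1r gave 89, 172, 149 and 180 of the 176, 173, 152 and 218 microglial reads. The reads of the other microglial genes lay mostly in control normal and knockdown OGD. As a percentage of the control normal sum, knockdown OGD held 29.4% of the oligodendrocyte level (27.9 to 31.1), 14.9% of the astrocyte level (14.4 to 15.5), 33.1% of the endothelial level (27.9 to 39.1), 124% of the microglial level (101 to 152) and 11.5% of the globin level (9.21 to 14.1). In bulk RNA, fewer cells of a type and less RNA per cell cannot be told apart.

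These sums rested on few genes. Without Csf1r the microglial value was 43.7%, without Apoe the astrocyte value was 24.6%, without Mbp the oligodendrocyte value was 22.6%, and without Hba-a1 the globin value was 24.7%. With the genes present in all libraries removed, the oligodendrocyte value fell to 3.42%. Within a class the log2 ratio of knockdown OGD over control normal ran from -5.98 (Olig1) to -0.38 (Cnp) among the 8 oligodendrocyte genes with 20 or more reads, and from -5.27 (Ckb) to 2.10 (Sparcl1) among 10 astrocyte genes. The range within either class was wider than the gap between the medians of the 2 classes (-2.25 and -0.90).

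**Figure D3:**
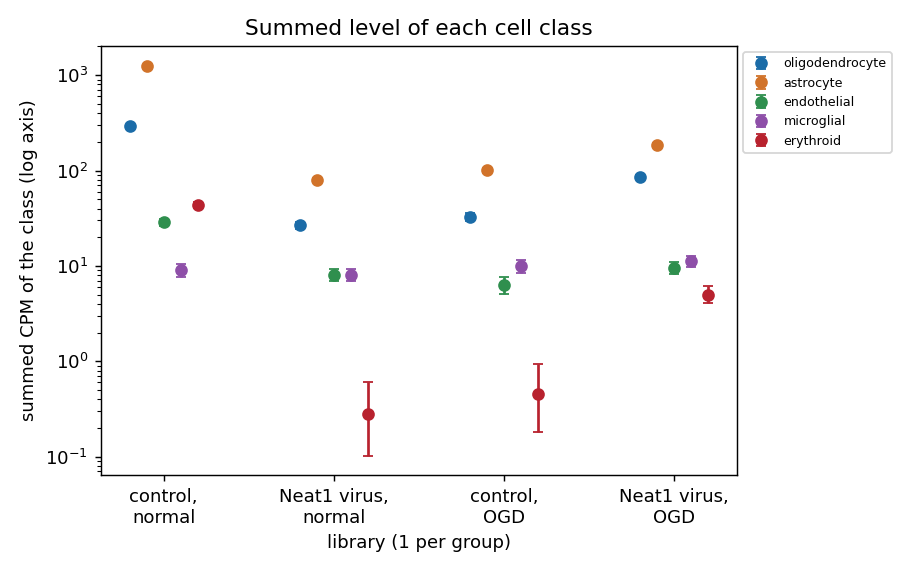
Summed CPM of the genes of each class in each library (log axis), with 95% Poisson intervals for counting error; the choroid plexus gene Ttr is not drawn. Astrocyte, oligodendrocyte and globin sums are highest in control normal and next highest in knockdown OGD, and the microglial sum lies between 8.05 and 11.1 CPM in all 4 libraries.

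The design implies 4 comparisons, each of 1 library with 1, and each library serves in 2 of them. Genes with 20 or more reads in the higher library were counted as past the size rule at 2-fold, on the log2 ratio of CPM with 0.5 added, which understates the ratio of low genes. For a gene that reached this floor in only 1 library of a pair, the direction was largely set by the floor. With knockdown in normal culture, 18 of 23 counted genes were lower and none higher, and their median log2 ratio was -3.88. Of all genes counted the same way 16.3% were lower and 6.25% higher, around a median of -0.03. The lowest were Ckb (-8.52), Apoe (-7.98) and Olig1 (-7.25), and the 5 within 2-fold were Cnp, Flt1, Glul, Slc1a3 and Csf1r.

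With knockdown under OGD the direction was the other way: 15 of 20 counted genes were higher, none was lower, and their median was 1.82. Of all genes counted, 10.7% were higher and 4.23% lower, around a median of -0.00071. With 2 CPM added, or a floor of 100 reads, the count was 7. The highest were Mbp (2.81), Sparcl1 (2.68), Mobp (2.47) and Slc1a3 (2.45). Slc1a3 was 7.49-fold higher (4.53 to 13.2) while in normal culture its ratio lay within counting error of 1 (1.07-fold, 0.887 to 1.30). All 3 globin genes counted were higher, with Hbb-bs at 1.80, Hba-a1 at 1.79 and Hba-a2 at 1.57. In control OGD they had at most 4 reads each, so they met the floor through knockdown OGD alone and their direction is no finding. Mag, Gfap, S100b, Mt3 and Pecam1, with at most 7 reads in control OGD, and Slc1a3, with 17, also met it through knockdown OGD alone.

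OGD in control cells resembled knockdown in normal culture in its counts, but both use the control normal library. Here 18 of 23 genes were lower, 1 was higher, and the median was -3.41, against 22.2% lower and 9.36% higher among all counted genes and a median of -0.11. The gene past 2-fold upward was Csf1r (1.02), which was within 2-fold when scaled by total counts, and Sparcl1 stayed within 2-fold at -0.59. OGD in knockdown cells gave 15 of 20 higher and none lower around a median of 1.82, beside 19.1% higher and 16.9% lower among all counted genes and a median of -0.0020. The count of 15 was 7 with 2 CPM added and 6 with a floor of 100 reads. Sparcl1 led it (4.53, or 39.96-fold, 23.6 to 73.6), followed by Slc1a2 (3.99), Mbp (3.45) and Apoe (3.32). Of the 15, only Mbp, Mobp, Apoe and Slc1a2 had 20 or more reads in knockdown normal. The others, Sparcl1 with 14 reads there among them, met the floor through knockdown OGD alone, so the floor largely set their direction.

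**Figure D4:**
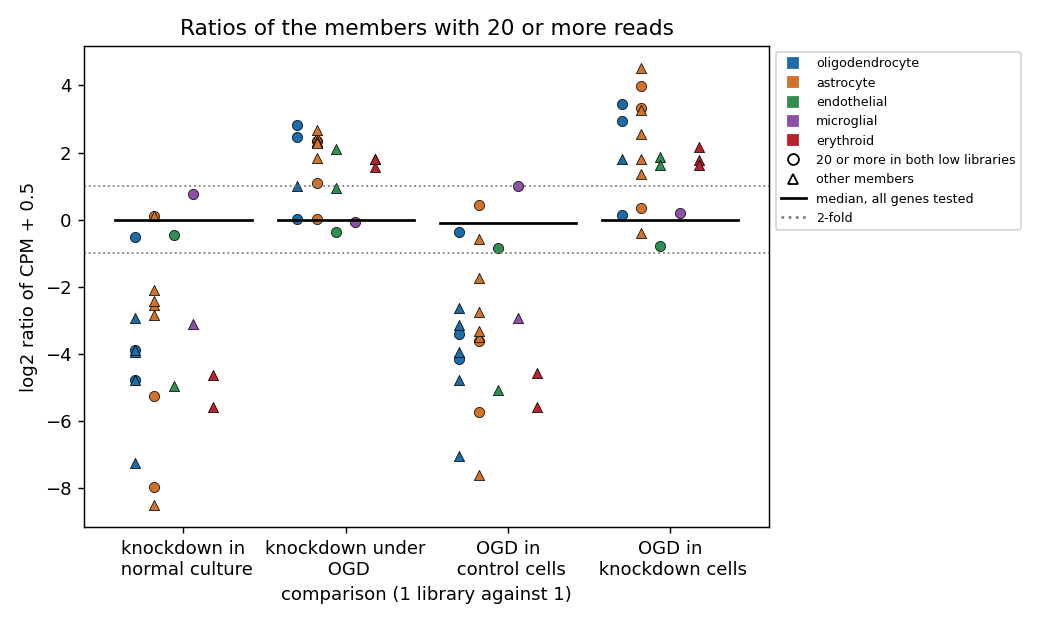
Log2 ratio of CPM with 0.5 added for each counted transcript in the 4 comparisons, coloured by class, with circles for the genes present in all libraries and triangles for the others; the black bars are the medians of all genes counted and the dotted lines 2-fold. Most points lie below -1 in the knockdown comparison in normal culture and in OGD of control cells, and above 1 in the other two.

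The authors' deposited table for knockdown in normal culture marks 12 of the 33 rows of these genes as down and 0 as up, by an unadjusted p-value below 0.05 computed from 1 library against 1. Of all 18309 rows of the authors' deposited table, 4.69% are down and 0.328% up. The 12 are Apoe, Ckb, Cldn5, Hba-a1, Hba-a2, Mag, Mbp, Mobp, Olig1, Olig2, Slc1a2 and Sox10, and 10 of them have a deposited adjusted p below 0.05 in the authors' deposited table. In the authors' deposited table for OGD in control cells 11 of 32 rows are down, the same genes without Mag, beside 3.18% of all rows, and 6 of the 11 have an adjusted p below 0.05. The authors' deposited tables mark 5 of 34 as up with knockdown under OGD (Ckb, Mbp, Mobp, Slc1a2 and Sparcl1), beside 0.746% of all rows, and 4 of 34 as up with OGD in knockdown cells (Apoe, Mbp, Slc1a2 and Sparcl1), beside 1.18% of all rows. The adjusted p in the authors' deposited tables is below 0.05 for 1 of those 5 genes and for 0 of those 4.

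A property of the transcripts that the choice of genes did not use followed the ratio between the 2 high libraries. GC content, the share of G and C bases, was taken from the longest coding transcript of each gene in GENCODE release 21 (GRCm38). Over the 19 genes outside the set present throughout, the log2 ratio of knockdown OGD over control normal fell with GC content, with a Spearman rho of -0.863 and a Pearson r of -0.867. These points share both libraries, and the ratio also ran with total reads (rho -0.573) and, less closely, with transcript length (rho 0.270). Of the 6 genes at 45 to 50% GC the median ratio was 1.51 and 4 were above 0. The 3 genes at 50 to 55% had a median of -1.04. The 7 at 55 to 60% had a median of -3.01 and the 3 above 60% a median of -3.76, with none above 0 in either. Sparcl1, S100b, Kdr and Pecam1, all higher in knockdown OGD, lay between 48.2% and 49.8% GC, and Hbb-bs at 51.3%. Slc1a3 (46.7% GC) and Gjb6 (49.6%) lay in the same range of GC with ratios of -0.31 and -0.75. Olig1, Sox10, Cldn5 and Ckb, all at least 21.7-fold lower there, lay between 59.99% and 61.8%, and Olig2, 43.8-fold lower, at 58.5%.

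The extremes of that order are shown with G and C in capitals, as the first 90 coding bases in a row whose GC content is closest to that of the whole coding sequence. Olig1 (chr16:91269772-91271933, plus strand, GRCm38) had the lowest ratio of the 19 and has 68.5% GC in its coding sequence; coding bases 5 to 94 hold 68.9%. Sparcl1 (chr5:104079111-104113733, minus strand) had the highest ratio and has 50.3%; coding bases 115 to 204 are shown.
Olig1: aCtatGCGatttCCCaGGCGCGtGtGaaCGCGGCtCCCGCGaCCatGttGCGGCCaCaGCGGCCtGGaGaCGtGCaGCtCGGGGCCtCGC
Sparcl1: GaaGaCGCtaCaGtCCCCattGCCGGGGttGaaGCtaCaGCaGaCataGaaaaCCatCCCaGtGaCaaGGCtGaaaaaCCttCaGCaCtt
The contrast cut across cell classes. Within the astrocyte genes Ckb (59.99%) and Sparcl1 (48.2%) were at opposite ends, within the endothelial genes Cldn5 (60.5%) and Pecam1 (49.8%), and within the globins Hba-a1 (57.2%) and Hbb-bs (51.3%). These pairs are the extremes of their classes among the 19, and not every gene followed the order. Cldn11 (50.9%) had a ratio of -2.37, against 1.46 for Hbb-bs. C1qb (57.4%), outside the 19 with 9 reads in knockdown OGD, had a ratio of 0.94.

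**Figure D5:**
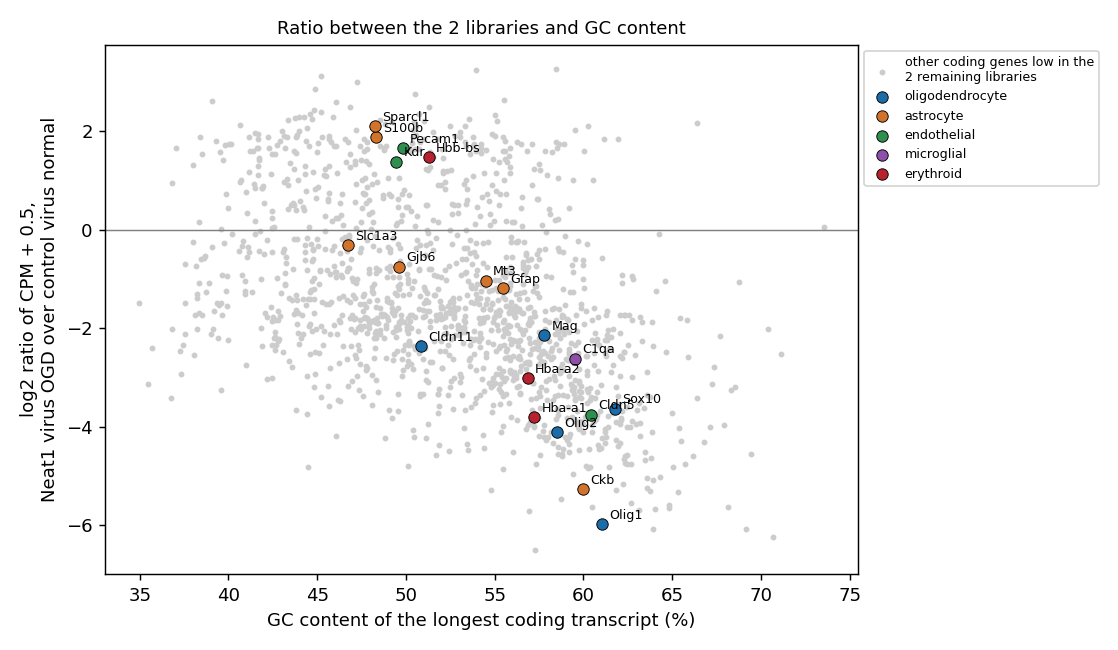
Log2 ratio of knockdown OGD over control normal (CPM with 0.5 added) against GC content of the longest coding transcript (%) for the 19 genes, coloured by class, over other coding genes that were under 20 reads in knockdown normal and control OGD (grey). The coloured points run from Sparcl1 (2.10 at 48.2%) to Olig1 (-5.98 at 61.1%), inside the grey cloud, which slopes the same way.

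Coding genes outside the 34 gave a relation of the same sign. Among 1457 of them with under 20 reads in knockdown normal and control OGD and at least 20 in a high library, rho was -0.463, and the median ratio went from -0.50 below 45% GC to -3.39 above 60%. Among 8493 with 100 or more reads in every library rho was -0.151, with medians from 0.13 to -0.42. Total reads ran more closely with the ratio than GC content did in the 1457 genes (rho -0.568), and less closely in the 8493 (rho -0.014). For the 1457 genes, rho with total reads was -0.824 with knockdown in normal culture and -0.767 with OGD in control cells. In each case the genes are not independent replicates. For the 19 genes, rho with GC was -0.846 with knockdown in normal culture, -0.796 with OGD in control cells, -0.404 with knockdown under OGD and -0.295 with OGD in knockdown cells. In the same order it was -0.380, -0.397, -0.117 and -0.136 for the 1457 genes and -0.162, -0.051, -0.192 and -0.054 for the 8493. For 24 further glial, vascular and blood markers that were low in knockdown normal or control OGD it was -0.565, -0.529, -0.788 and -0.512, so the comparison with the closest relation differed between the sets. For 9 neuronal genes taken by the same rule it was -0.867, -0.833, 0.317 and 0.617. The sign was thus opposite for them with knockdown under OGD and with OGD in knockdown cells. The part of GC content in these ratios was not tested.

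Another 85 markers of the same and related classes were examined, and with the 18 neuronal genes 90 of 103 had a row. They held the same mixture of genes. Cryab and Qdpr, which many cells express, led the oligodendrocyte list with 4260 and 1394 reads in control normal and 3118 and 1470 in knockdown normal. Nkx6-2, a factor of maturing oligodendrocytes, had 283, 0, 1 and 1 reads, close to Olig1, and Mal, a myelin proteolipid, had 138, 0, 8 and 66, close to Mbp. Ntsr2 and Gpr37l1, receptors of astrocytes, had 767, 3, 4 and 25 reads and 151, 1, 4 and 25, between Olig1 and Mag in the log2 ratio of knockdown OGD over control normal (-4.48 and -2.21), while Cst3 and Gja1 had at least 4768 and 1219 reads in every library. Among oligodendrocyte precursor genes Cspg4 (613, 757, 1015 and 686 reads) and Vcan (1062, 976, 249 and 284) were present throughout, and Gpr17 (21, 0, 2 and 21) and Lhfpl3 (2, 0, 0 and 4) were not. C1qc, the partner of C1qa and C1qb, had 82, 0, 0 and 4 reads, as C1qa did, and Trem2 had 49, 14, 6 and 13. Tmem119, a membrane protein of microglia, had 1209, 1202, 129 and 209 reads, lower in the OGD libraries. The microglial companions together had 2398, 2019, 1440 and 2564 reads, much of them from genes not named here. Their sum in knockdown OGD was 107% of that in control normal (101 to 113). Hbb-bt, the other adult beta globin gene, had 0, 0, 0 and 10 reads, highest where Hbb-bs was, and Alas2, an enzyme of heme synthesis, had 0, 1, 0 and 2.

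The mural and endothelial lists held both kinds of gene. Acta2, smooth muscle actin, had 18060, 13558, 32544 and 23438 reads, and Slc2a1, a glucose transporter, had 1398, 1410, 21957 and 22124 reads, with log2 ratios under OGD of 4.31 in control cells and 4.10 in knockdown cells. For Eng (251, 172, 184 and 127 reads), Vwf (12, 11, 6 and 8) and Tagln (704, 671, 1258 and 679) the high libraries were not both above the others. Tagln had its highest level in control OGD. Tie1, an endothelial receptor, had 21, 0, 1 and 6 reads, and Rgs5 and Vtn, found in pericytes, 13, 0, 3 and 17 and 10, 0, 0 and 23. With knockdown in normal culture 8 of 11 counted oligodendrocyte companions and 9 of 13 astrocyte companions were past 2-fold lower, where 16.3% of all counted genes were. The counts were 1 of 4 for precursor, 2 of 6 for endothelial, 2 of 5 for microglial and 0 of 3 for mural companions, and 2 astrocyte companions and 1 microglial companion were past 2-fold higher. Of the choroid plexus and ependymal list only 3 of 10 had a row, Enpp2 (26, 33, 27 and 95 reads), Foxj1 (15, 39, 2 and 16) and Clic6 (8, 0, 0 and 6). The other 7 of that list, and 4 of 6 erythroid companions, had no row. The neuronal genes named by the same rule, Nrgn, Syn1, Grin1 and Nefm, had 21469, 5491, 3161 and 2442 reads in control normal and 449, 201, 92 and 110 in knockdown OGD, with at most 42 in either of the others. Nrgn gave 21469 of the 47939 reads of the 18 neuronal genes in control normal. Knockdown OGD held a median of 22.2% of the control normal level over the 18, but 499% for Eno2. In control OGD Eno2 stood at 305% of control normal, and Tubb3 at 252% of knockdown OGD.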

How the data were processed

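RNA of 4 cultures was sequenced, 1 library per group. Per the labels' protocols, total RNA was fragmented to about 200 base pairs, made into double-stranded cDNA whose single strand was marked with deoxy-UTP, and enriched by PCR. Alignment was by TopHat2 on mm10, per the submitters' processing notes. Counter, annotation and use of strand are not given in the sources here, and where genes overlap their reads cannot be told apart. The authors deposited 4 tables, each of 2 libraries, with size-factor scaled counts (a signal), a ratio and log2 ratio of them and p-values before and after adjustment, per the file headers, and values read here as FPKM, since the deposited headers name no unit. No value column lacked a sample (0).

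Dividing each library's scaled counts by their step gave whole reads for 100% of values (tolerance 1e-06), and both tables of a library gave the same reads. With 1 library per group no test was run. TMM factors (edgeR 4.0.16, R 4.3.3) were 1.05 and 1.03 for control and knockdown in normal culture, 0.893 and 1.03 under OGD. Log2 ratios used CPM with 0.5 added and a floor of 20 reads in the higher library; intervals are exact conditional binomial for ratios and exact Poisson for levels, and folds against 0 reads use 3 reads, without the added 0.5 CPM. Python 3.11.15 with scipy 1.17.1, pandas 2.3.3 and numpy 2.4.6 gave the ratios and matplotlib 3.10.9 the plots. A simulation with known fold changes served to check the 2-fold rule. It changed only genes with 100 or more expected reads and held counting error alone, so it did not check the rule for genes with fewer reads. Names, coordinates and sequences came from GENCODE mouse release 21 (GRCm38), which matched 19912 of 20089 identifiers. Besides all 34 genes, the text names from each list of further markers the 2 genes with the most reads. It also names the 2 with the most reads in control normal among those under 20 in knockdown normal and control OGD. A few others in it are chosen by their values, and 1 microglial gene that the rule takes is left out. The 34 genes and the lists were chosen with earlier results of these data known. Alternatives were total counts, median-of-ratios size factors, an added 2 or 0.1 CPM, no floor or one of 100 reads, deposited FPKM, other thresholds of presence, and class sums without their largest gene; those for GC content were added after the data were seen.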

Additional observations from a re-analysis of the deposited data

Results flagged for a closer look

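For 11 genes the log2 ratio with knockdown had opposite signs in the 2 cultures, past 2-fold in each with 20 or more reads in the higher library, lower in normal culture and higher under OGD. That is 11 of the 16 genes counted in both comparisons, beside 672 of 12856 genes (5.23%) with opposite signs past 2-fold among all genes. Of those 672, 626 were lower in normal culture and higher under OGD. Mag, Gfap, Mt3, Hba-a1 and Hba-a2 had at most 10 reads in knockdown normal and in control OGD. They were counted through the high libraries alone, so the floor largely set their directions. The difference between the ratios (OGD minus normal culture) was 10.88 for Ckb, 9.06 for Apoe, 7.61 for Slc1a2, 7.61 for Mbp, 7.38 for Hba-a1, 6.36 for Mobp, 6.19 for Hba-a2, 5.14 for Mt3, 5.11 for Sparcl1, 4.98 for Mag and 4.88 for Gfap. Each ratio compares 1 library with 1, so the difference was not tested. They are oligodendrocyte, astrocyte and globin genes.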

How the results depend on the processing

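With a threshold of 50 in place of 20 scaled counts, 5 genes were present in both knockdown normal and control OGD. The counts of genes past 2-fold lower in the comparisons with control normal stayed between 16 and 19 under every alternative run. Those of higher genes were less stable: with 2 CPM added they were 7 with knockdown under OGD, 0 with OGD in control cells and 7 with OGD in knockdown cells. A floor of 100 reads gave 7 with knockdown under OGD and 6 with OGD in knockdown cells, where fewer genes are counted, and total counts and deposited FPKM each gave 0 with OGD in control cells. Knockdown OGD as a percentage of control normal was, without the gene with the most reads, 22.6% for oligodendrocyte, 24.6% for astrocyte, 43.7% for microglial and 24.7% for globin genes. With only the genes outside the set of 8 it was 3.42%, 10.3% and 43.7% for the oligodendrocyte, astrocyte and microglial classes. With deposited FPKM it was 10.2%, 16.1% and 57.9% for the astrocyte, endothelial and microglial classes. The cause was not tested. The rank correlation with GC content lay between -0.909 and -0.750 under the alternatives. No paired analysis was possible because each group is 1 library. Depth limits the 7 genes under 20 reads, and no library could be left out.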
